A study of Homo sapiens with 10 samples.

Results

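The genes described here encode kinases and adaptor proteins of focal adhesions. PTK2, ILK, FERMT2, PARVA, TLN1, VCL, TNS3, PXN, TES and ZYX were looked up by gene name in a table of estimated counts from RNA sequencing, and 9 of these 10 were read among its 40664 gene rows. ZYX was not analysed here. The libraries came from hTERT RPE-1 (CRL-4000), a single human epithelial line derived from retinal pigment epithelium and kept dividing by telomerase. Cells received siNemp1, a small interfering RNA against NEMP1, a protein of the inner nuclear membrane, or served as Control, and each of these was grown on a 120 kPa (stiff) or a 10 kPa (soft) substrate. There were 3 siNemp1 and 3 Control libraries at 120 kPa, and 2 siNemp1 and 2 Control libraries at 10 kPa. The labels do not say what the Control cells received, when cells were collected, or whether replicates were separate cultures, so each p-value measures spread among these libraries that could be technical.

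A focal adhesion is a cluster of proteins in which integrins, the receptors that grip the extracellular matrix, are coupled to actin filaments. Talin and kindlins bind integrin tails and switch the receptors on. Vinculin strengthens the talin to actin link under load, and the complex of integrin-linked kinase with parvin and PINCH gives another link. Focal adhesion kinase and paxillin pass the signal on. In cultured cells these sites are known to grow on stiff matrix and to mature under pulling force.

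Promoter sequences are shown first for 3 members that lay higher in siNemp1 cells at 120 kPa (ILK, FERMT2 and TES) and for VCL, so that short motifs of regulators tied to cell mechanics can be read against them. They are the 250 bases before a RefSeq gene start on GRCh38.p14, written 5′ to 3′ on the gene's strand, and 7 of the 9 genes matched a RefSeq promoter, 4 of them with a single start. The motifs searched on both strands were GGAATG (bound by TEAD factors, the partners of YAP), TGANTCA (AP-1), GGGCGG (the GC box), CCGGAAGT (ETS factors), the CArG box (bound by SRF) and the motif of NRF1. Capitals mark the matches. ILK lies at chr11:6603524-6603773 on the plus strand, FERMT2 at chr14:52951051-52951300 on the minus strand, the downstream of 2 TES promoters at chr7:116222703-116222952 on the plus strand, and VCL at chr10:73997866-73998115 on the plus strand.
ILK: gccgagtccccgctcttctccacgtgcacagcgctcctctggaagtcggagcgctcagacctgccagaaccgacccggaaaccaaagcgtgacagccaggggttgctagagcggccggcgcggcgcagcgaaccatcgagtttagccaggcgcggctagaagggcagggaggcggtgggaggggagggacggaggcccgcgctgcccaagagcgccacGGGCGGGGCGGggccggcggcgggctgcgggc
FERMT2: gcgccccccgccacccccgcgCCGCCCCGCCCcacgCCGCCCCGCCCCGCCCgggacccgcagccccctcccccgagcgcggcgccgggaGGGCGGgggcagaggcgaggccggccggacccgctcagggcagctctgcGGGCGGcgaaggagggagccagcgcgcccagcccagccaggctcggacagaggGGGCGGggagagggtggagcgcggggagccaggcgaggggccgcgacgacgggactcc
TES: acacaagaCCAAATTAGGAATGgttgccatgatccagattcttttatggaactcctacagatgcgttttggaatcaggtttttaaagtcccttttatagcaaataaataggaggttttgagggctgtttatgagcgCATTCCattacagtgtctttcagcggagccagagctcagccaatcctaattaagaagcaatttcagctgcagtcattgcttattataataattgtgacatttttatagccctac
VCL: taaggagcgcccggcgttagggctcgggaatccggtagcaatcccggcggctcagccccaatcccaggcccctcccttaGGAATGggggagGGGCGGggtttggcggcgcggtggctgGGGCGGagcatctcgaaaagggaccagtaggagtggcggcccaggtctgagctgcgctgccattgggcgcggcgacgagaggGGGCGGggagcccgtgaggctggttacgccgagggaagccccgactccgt

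In the ILK sequence the capitals are 2 overlapping GC boxes, and in FERMT2 8 GC boxes, 5 of them on the minus strand. The TES sequence holds the CArG box, from 242 to 233 bases before the start, overlapping a TEAD match, and another TEAD match on the minus strand. In VCL there is 1 TEAD match, from 171 to 166 bases before the start, and 3 GC boxes. The 7 genes have 11 promoters, of which 3 held the TEAD letters (1 each of TES, VCL and PXN), 1 the CArG box (TES) and 7 the GC box (1 of each gene), while AP-1, ETS and NRF1 letters were not in these windows. Among 35116 RefSeq promoters of the same length, 11.9% held the TEAD motif, 1.16% the CArG box, 42.6% the GC box, 6.57% AP-1, 3.42% ETS and 1.03% NRF1. Base composition differed widely, at 84.4% G or C for FERMT2 and 38.4% for the TES sequence shown, beside a median of 58% over all promoters. A match of letters is a description of the sequence and does not show that a factor binds there.

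Depth and state of the libraries bear on every value below. Totals were 17.9 to 23.8 M estimated counts (M for 1000000). NEMP1 was at 7.52, 6.70 and 4.11 CPM (counts per 1000000, TMM-scaled) in siNemp1 and 18.3, 14.05 and 14.07 CPM in Control at 120 kPa, and at 8.22 and 7.63 CPM in siNemp1 and 14.1 and 17.3 CPM in Control at 10 kPa. No siNemp1 library reached any Control library, and the labels held for the targeted gene. At 120 kPa libraries with the same replicate number deviated together (r = 0.380, 0.136 and 0.331, taken across genes, so not over independent replicates). The first principal component rose with replicate number in both groups there. It was −7.48, 24.4 and 62.5 in siNemp1 and −34.9, −2.73 and 33.6 in Control, so pair 3 was the upper end of a gradient. The 10 kPa libraries ran from −23.3 to −12.2. The mitochondrial share of counts at 120 kPa was 1.06%, 0.827% and 0.709% in siNemp1 and 1.73%, 1.40% and 0.913% in Control. It was lower in siNemp1 within each same-numbered pair and fell with replicate number in both groups, and the groups overlapped. At 10 kPa it was 1.48% and 1.55% in siNemp1 and 1.60% and 1.54% in Control. Of 13 markers of retinal pigment and other epithelium, KRT8, KRT18, BEST1, MITF and OTX2 were expressed. TYRP1 (0.80 to 3.39 CPM) and PMEL (1.51 to 3.74 CPM) were low. RPE65, RLBP1, LRAT, TYR, CDH1 and EPCAM stayed under 1 CPM in all 10 libraries. The summed level of 10 markers of blood, endothelium and fibroblasts was 309.6 to 719 CPM in siNemp1 and 681 to 891 CPM in Control at 120 kPa, and 748 CPM in both siNemp1 libraries against 934 to 935 CPM in Control at 10 kPa. Most of it was THY1 (255 to 832 CPM), CDH5 was at 0, and the part of these shifts in the results was not tested.

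Per length of transcript the genes spanned more than an order of magnitude. ILK was the most abundant at 240 ± 46.5 CPM per kb (mean ± SD over the 10 libraries), followed by VCL at 85.9 ± 18.6. TES at 35.0 ± 5.82, TLN1 at 34.7 ± 5.28 and PXN at 32.6 ± 4.66 CPM per kb did not differ beyond their spread, and neither did PARVA at 23.55 ± 1.803 and TNS3 at 22.7 ± 4.67. PTK2 lay at 16.2 ± 3.81 and FERMT2 lowest at 7.51 ± 1.26 CPM per kb. PARVA varied least between libraries, with a highest CPM 1.27 times its lowest, and PTK2 most, at 2.43 times.

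**Figure D1:**
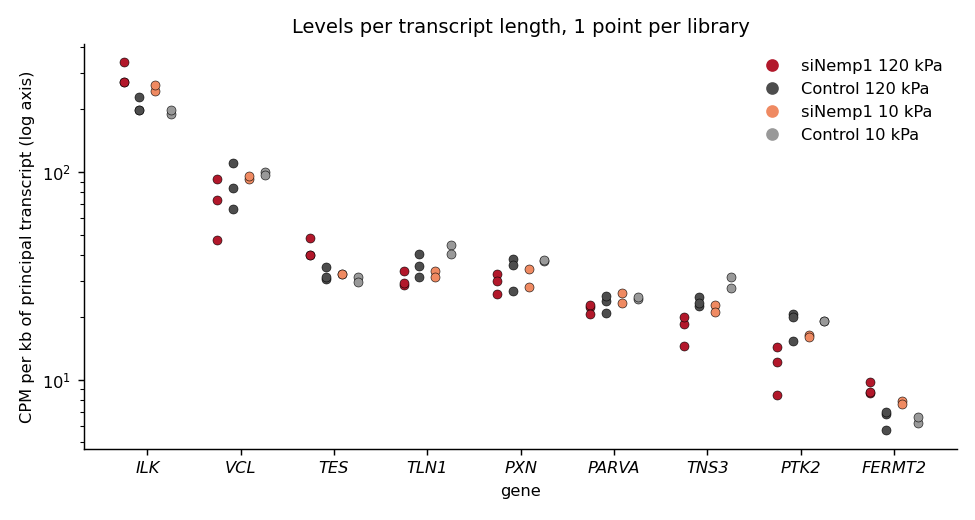
CPM per kb of principal transcript (log axis) for each gene, 1 point per library, coloured by group. ILK lies above all other genes in every library (191 to 337 CPM per kb), FERMT2 is lowest by its mean, and TES, TLN1 and PXN occupy the same range.

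On the stiff substrate the siNemp1 libraries had less PTK2 and TNS3 and more ILK, FERMT2 and TES than Control. Differences had 1 sign in all 3 same-numbered pairs for each of the 9 genes, 3 higher and 6 lower, and for 46.9% of all genes (25.1% higher, 21.8% lower), so this does not set the 5 apart. The changes were moderate, from −0.70 (PTK2) to 0.49 (ILK) on the log2 scale. They passed edgeR's quasi-likelihood test at a Benjamini-Hochberg adjusted p under 0.05 with the replicate number as a block, which called 5 of 9 genes, 3 higher and 2 lower, where 8.75% of all 13990 tested genes were called (6.24% higher, 2.51% lower). Without the block, in the planned main test, 0 of 9 passed and 0% of all genes did, although the same 5 of 9 genes and 2413 of all genes (17.2%) had an unadjusted p under 0.05. DESeq2 called these 5 as well, and 2.73% of its genes, which were 642 of the 23537 with a p-value. Its shares here and below include genes without an adjusted p, so they are not directly comparable with those of edgeR. The calls of the blocked fit depended on the pairs: 6 of 9 genes passed without pair 1 (11.2% of all genes), 0 without pair 2 (0.0144%, 2 genes) and 1, PTK2, without pair 3 (5.49%). In bulk RNA, fewer cells of a type and less RNA per cell cannot be told apart.

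PTK2 (ENSG00000169398, chromosome 8, 140657900 to 141002216, minus strand, GRCh38) encodes focal adhesion kinase, the tyrosine kinase that autophosphorylates on integrin engagement and recruits SRC-family kinases. At 120 kPa it was at 71.1, 60.5 and 42.1 CPM in siNemp1 replicates 1, 2 and 3, against 102, 99.1 and 76.1 CPM in Control. Every siNemp1 library lay below every Control library, and in both groups replicate 3 was the lowest. The log2 fold change was −0.70 ± 0.10 (± SE) with an adjusted p of 0.0061 with the block, and −0.68 ± 0.18 with 0.10 without it (edgeR, Benjamini-Hochberg). Within pairs the difference was −0.52, −0.71 and −0.85 for numbers 1, 2 and 3. Without the pair numbered 3, highest on the first principal component, the blocked value was −0.66 ± 0.11 (adjusted p = 0.016), so PTK2 kept its call there. The blocked edgeR fit also called PTK2 without pair 1 (adjusted p = 0.0025), but not without pair 2 (0.071).

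ILK (ENSG00000166333, chromosome 11, 6603708 to 6610874, plus strand) encodes integrin-linked kinase, a pseudokinase scaffold that binds the integrin beta tail, PINCH and parvin. Its level at 120 kPa was 699, 563 and 560.2 CPM in siNemp1 and 475, 411 and 413 CPM in Control, again with no overlap. Replicate 1 was the highest in both groups. The gene rose by 0.49 ± 0.10 on the log2 scale with the block (adjusted p = 0.019), and lay at 0.49 ± 0.12 without it (0.092, edgeR). Its exons share 68.1% of their bases with TAF10 on the opposite strand, and the sources used here do not state strandedness, so reads of the pair cannot be told apart. TAF10 itself was assigned a mean of 294 estimated counts per library, beside 10557 for ILK.

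FERMT2 (ENSG00000073712, chromosome 14, 52857268 to 52952435, minus strand) encodes kindlin-2, which binds integrin beta tails together with talin. It was at 29.2, 29.5 and 32.7 CPM in siNemp1 and 19.2, 23.0 and 23.5 CPM in Control at 120 kPa. The groups did not overlap, and the lowest library was Control replicate 1. FERMT2 rose by 0.48 ± 0.11 on the log2 scale with the block (adjusted p = 0.023), against 0.48 ± 0.12 without it (0.092).

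TES (ENSG00000135269, chromosome 7, 116210493 to 116258783, plus strand) encodes testin, a LIM-domain protein that sits at focal adhesions and on stress fibres. Libraries at 120 kPa held 111, 111 and 133 CPM in siNemp1, against 85.3, 87.3 and 97.6 CPM in Control. Replicate 3 was the highest in both groups. The pair differences were 0.38, 0.34 and 0.45 for TES, beside 0.56, 0.46 and 0.44 for ILK. TES rose by 0.39 ± 0.09 with the block (adjusted p = 0.020) and was at 0.39 ± 0.11 without it (0.11).

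TNS3 (ENSG00000136205, chromosome 7, 47275154 to 47582558, minus strand) encodes tensin-3, an adaptor that binds integrin tails and actin and lies mainly in older, more central adhesions. It was at 141, 152 and 111 CPM in siNemp1 and 172, 191 and 178 CPM in Control at 120 kPa. All siNemp1 libraries lay lower, with the widest gap in pair 3 (−0.68, beside −0.28 and −0.33 in pairs 1 and 2). TNS3 fell by 0.43 ± 0.11 on the log2 scale with the block (adjusted p = 0.035), and the value was −0.42 ± 0.13 without it (0.14).

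TLN1, VCL, PXN and PARVA did not pass at 120 kPa in either of these fits. Talin, the product of TLN1 (chromosome 9, 35696948 to 35732395), is the integrin activator that unfolds under tension, and its gene was at 251, 295 and 257 CPM in siNemp1 against 275, 354 and 312 CPM in Control (−0.23 ± 0.11, adjusted p = 0.23 with the block). VCL (chromosome 10, 73995193 to 74121363), for vinculin, which binds unfolded talin, was at 507, 403 and 259.5 CPM in siNemp1 against 606, 462 and 366 CPM in Control. Its spread followed the replicate number, with number 1 highest and number 3 lowest in both groups. The VCL value was −0.32 ± 0.11 with the block (adjusted p = 0.10), and −0.34 ± 0.09 in a blocked fit of the 120 kPa libraries alone (0.044). PXN (chromosome 12, 120210439 to 120265771), for the scaffold paxillin, was at 98.5, 123 and 113 CPM in siNemp1 and 101, 144 and 136 CPM in Control (−0.18 ± 0.13, adjusted p = 0.45). PARVA (chromosome 11, 12377185 to 12535356), for the actin-binding ILK partner alpha-parvin, was at 196, 199.7 and 180.3 CPM in siNemp1 and 209.5, 220.0 and 183 CPM in Control (−0.09 ± 0.09, adjusted p = 0.60). Of the 9 genes, 5 had groups that did not overlap at 120 kPa, 3 higher and 2 lower in siNemp1, where 17.9% of all tested genes were so separated (10.9% higher, 6.95% lower).

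**Figure D2:**
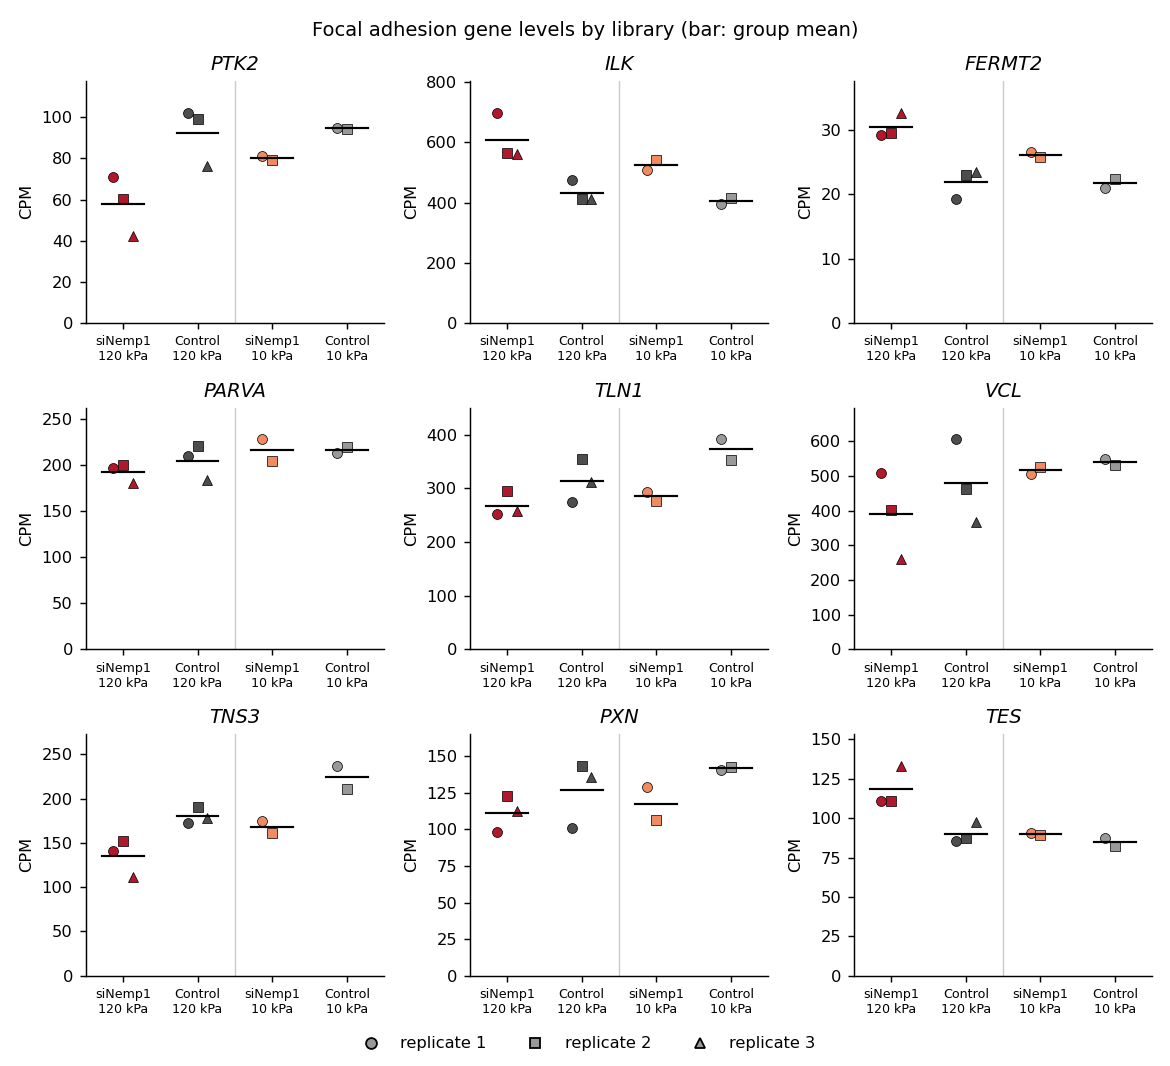
CPM of each gene in every library, by treatment and stiffness, with the group mean as a bar and the replicate number as the symbol. PTK2 and TNS3 sit lower, and ILK, FERMT2 and TES higher, in all 3 siNemp1 libraries than in all 3 Control libraries at 120 kPa, while PARVA stays between 180.3 and 228 CPM in all 10.

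**Figure D3:**
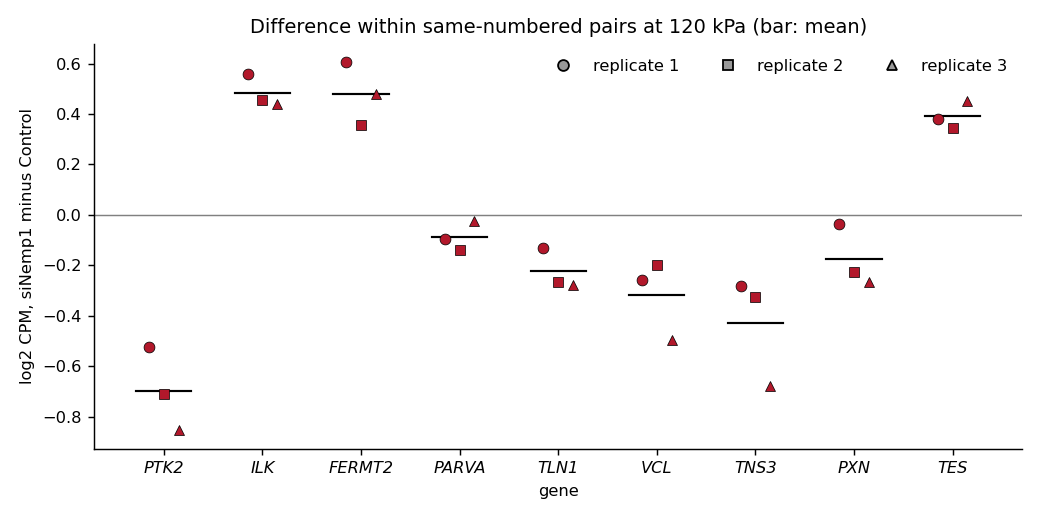
Difference in log2 CPM, siNemp1 minus Control, within each same-numbered pair at 120 kPa, with the mean as a bar. PTK2 lies at −0.52 to −0.85 in the 3 pairs and PARVA at −0.02 to −0.14, and pair 3 is the lowest for PTK2, TLN1, VCL, TNS3 and PXN.

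Transcript length moved with treatment across all genes, and the genes here differ in length. With tested genes split into 4 equal bins from short to long transcripts, the median log2 fold change at 120 kPa was 0.18, 0.05, −0.04 and −0.12. The principal transcripts of ILK (2074 bases) and TES (2782 bases) are in the second bin and those of FERMT2 (3369 bases) and PXN (3785 bases) in the third, while PTK2 (4955), VCL (5490), TNS3 (7618), PARVA (8719) and TLN1 (8823) are in the longest bin. With trends of length and GC content removed from each library, an alternative added after seeing the data, the blocked fit called PTK2 (−0.63 ± 0.09, adjusted p = 0.0031), ILK (0.48 ± 0.12, 0.027), FERMT2 (0.44 ± 0.10, 0.025) and TES (0.33 ± 0.08, 0.028), where 8.58% of all genes were called (5.85% higher, 2.73% lower). TNS3 did not pass there (−0.19 ± 0.09, adjusted p = 0.22), and TLN1 was at 0.04 ± 0.08 (0.80). VCL was at −0.20 ± 0.11 (0.31), PXN at −0.04 ± 0.08 (0.79) and PARVA at 0.06 ± 0.09 (0.75). The 4 called values were nearly as large as with the trends left in, and TNS3 was at −0.19 where it had been at −0.43.

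**Figure D4:**
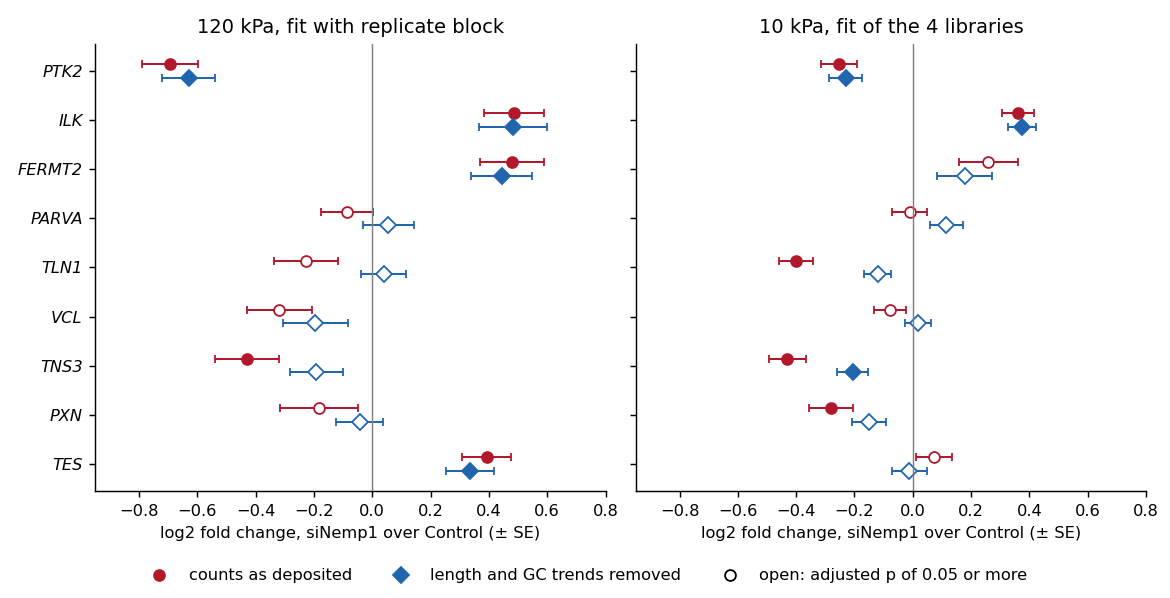
Log2 fold change, siNemp1 over Control, with its standard error, at 120 kPa (replicate block) and at 10 kPa (its 4 libraries fitted alone). Circles use the counts as deposited, diamonds have length and GC trends removed, and filled symbols passed an adjusted p of 0.05. PTK2 and ILK are filled in all 4 cases, and TNS3 and TLN1 move towards 0 when the trends are removed. The diamonds were added after the data were seen. The planned main test without the block, not drawn, called 0 of 9 genes at either stiffness.

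On the soft substrate ILK, FERMT2 and TES lay higher in both siNemp1 libraries than in both Control libraries. PTK2, TNS3, TLN1, PXN and VCL lay lower in the same way, and 57.3% of all tested genes were so separated (28.5% lower, 28.8% higher). The fit of all 10 libraries called 0 of 9 genes, with and without the block (0% of all genes without it and 0.0286% with it). Without the block 3 of the 9 genes (ILK, TNS3 and TLN1) and 850 of all genes (6.08%) had an unadjusted p under 0.05. DESeq2 called 0 of 9 as well and 0.0722% of its genes. A fit of the 4 libraries at 10 kPa alone called 5 of 9, 1 higher and 4 lower, where it called 17.3% of all genes (8.1% higher, 9.19% lower). That fit rests on how alike the replicates were: its common dispersion was 0.00423, against 0.0387 over all libraries, and it leaves 2 residual degrees of freedom. At 10 kPa the replicate numbers did not pair the libraries (r = 0.0189).

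In the 4-library fit ILK rose, at 507 and 543 CPM in siNemp1 against 396 and 414 CPM in Control (0.36 ± 0.06, adjusted p = 0.00012, edgeR). PTK2 fell, at 81.0 and 79.4 CPM in siNemp1 and 94.9 and 94.6 CPM in Control (−0.25 ± 0.06, adjusted p = 0.0058). The replicates of PTK2 differed by less than 2 CPM within each group there. TNS3, at 175 and 161 CPM in siNemp1 against 237 and 211 CPM in Control, fell by 0.43 ± 0.06 on the log2 scale (adjusted p = 0.00010). TLN1, at 294 and 277 CPM in siNemp1 against 392 and 354 CPM in Control, fell by 0.40 ± 0.06 (7.7e-05). PXN fell by 0.28 ± 0.07 (0.018), with 129 and 106 CPM in siNemp1 and 141 and 143 CPM in Control. With length and GC trends removed from this fit ILK (0.37), PTK2 (−0.23) and TNS3 (−0.21) passed, and TLN1 (−0.12, adjusted p = 0.11) and PXN (−0.15, 0.10) did not, where 12.6% of all genes passed (6.43% higher, 6.22% lower).

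FERMT2, TES, VCL and PARVA did not pass at 10 kPa. FERMT2 was at 26.5 and 25.9 CPM in siNemp1 and 21.0 and 22.4 CPM in Control (0.26 ± 0.10, adjusted p = 0.078). TES was at 90.3 and 89.5 CPM in siNemp1 and 87.3 and 82.0 CPM in Control (0.07 ± 0.06, 0.48). VCL was at 506 and 526 CPM in siNemp1 against 549 and 532 CPM in Control, and PARVA at 228 and 204 CPM in siNemp1 against 213 and 219 CPM in Control, the sole gene of the 9 whose groups overlapped. The other 8 genes had separate groups, 5 lower and 3 higher in siNemp1, and with 2 libraries a group 57.3% of all tested genes did (28.5% lower, 28.8% higher).

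Over both stiffnesses together, ILK and FERMT2 were the 2 genes for which all 5 siNemp1 libraries exceeded all 5 Control libraries, a separation seen in 4.51% of tested genes (2.54% higher and 1.97% lower in siNemp1). ILK ran from 507 to 699 CPM in siNemp1 and from 396 to 475 CPM in Control, and FERMT2 from 25.9 to 32.7 CPM in siNemp1 and from 19.2 to 23.5 CPM in Control. Averaged over the stiffnesses edgeR's test without a block called 0 of 9 genes (1.29% of all genes, 0.858% higher and 0.429% lower), while 6 of them and 19.7% of all genes had an unadjusted p under 0.05, and DESeq2 called 5 beside 4.11% of its genes. ILK was nearest at 0.43 ± 0.10 (adjusted p = 0.058), then TNS3 at −0.42 ± 0.10 (0.072) and FERMT2 at 0.37 ± 0.10 (0.077). With the block it called 6 of 9, 3 higher (ILK, FERMT2, TES) and 3 lower (PTK2, TNS3, TLN1), where 10.8% of all genes were called (6.58% higher, 4.17% lower). With length and GC trends removed as well, ILK (0.44 ± 0.09, adjusted p = 0.015), FERMT2 (0.32 ± 0.08, 0.034) and PTK2 (−0.42 ± 0.07, 0.0063) passed, as did 8.78% of all genes (5.84% higher, 2.94% lower).

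Whether the siNemp1 effect differed between substrates was tested directly, and 0 of 9 genes passed edgeR's test (0.00715% of all genes did) or DESeq2's (0.0127%), with 0 of 9 at an unadjusted p under 0.05 in edgeR without the block (1.68% of all genes). The difference of the log2 fold changes, 120 kPa minus 10 kPa, was −0.44 ± 0.28 for PTK2 without the block and −0.45 ± 0.15 with it. For TES it was 0.31 ± 0.17 and 0.31 ± 0.14. Both had an adjusted p of 1 in the blocked fit, although their unadjusted p was 0.012 for PTK2 and 0.045 for TES. In that blocked fit 488 of all 13990 tested genes had an unadjusted p under 0.05 (edgeR). The remaining genes of the 9 had differences from −0.23 (VCL) to 0.21 (FERMT2) without the block. A call at 120 kPa and none at 10 kPa is therefore not a shown difference between substrates for any of these genes.

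Stiffness itself was compared within each treatment. In siNemp1 cells 0 of 9 genes passed edgeR's test (0% of all genes) and 0 of 9 DESeq2's (0.416%), and 3 (TES, PTK2 and TNS3) had an unadjusted p under 0.05 in edgeR, beside 11.8% of all genes. In 6 genes the 120 kPa and 10 kPa libraries did not overlap: ILK, FERMT2 and TES were higher and PTK2, TNS3 and PARVA lower at 120 kPa, beside 33.7% of all genes (18.2% higher, 15.5% lower). TES, at 111, 111 and 133 CPM at 120 kPa and 90.3 and 89.5 CPM at 10 kPa, had a log2 difference of 0.40 ± 0.12 (adjusted p = 0.32), and PTK2 one of −0.47 ± 0.20 (0.40). In Control cells 0 of 9 passed edgeR's test (0.0143% of all genes, and 0.0214% with the block) and 0 of 9 DESeq2's (0.051%), with TNS3 alone at an unadjusted p under 0.05 in edgeR (4.07% of all genes) and values from −0.32 ± 0.14 (TNS3) to 0.10 ± 0.14 (ILK). Only TNS3 was separate in Control, at 172, 191 and 178 CPM at 120 kPa and 237 and 211 CPM at 10 kPa, where 22.2% of all genes were (10.3% higher, 11.9% lower). These comparisons share libraries with those of siNemp1 against Control.

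Ratios between members within a library do not depend on scaling between libraries. ILK and PTK2, and FERMT2 and TLN1, differed in opposite directions above, so their ratios restate those differences. How often other gene pairs separate in this way was not computed. ILK per kb exceeded PTK2 per kb 14.96 to 31.8 times in the 5 siNemp1 libraries and 9.90 to 12.96 times in the 5 Control libraries. At 120 kPa the means were 25.8 ± 5.19 in siNemp1 and 11.3 ± 1.54 in Control (SD, n = 3 each), and at 10 kPa 15.6 ± 0.972 in siNemp1 and 10.2 ± 0.339 in Control (SD, n = 2 each). FERMT2 over TLN1, the pair of integrin activators, was 0.237 to 0.333 in siNemp1 and 0.140 to 0.197 in Control, also with no overlap. ILK over its partner PARVA was 9.34 to 14.98 in siNemp1 and 7.82 to 9.54 in Control, which overlap with the stiffnesses pooled. Within each stiffness it did not overlap. It was 11.86 to 14.98 in siNemp1 and 7.85 to 9.54 in Control at 120 kPa. At 10 kPa it was 9.34 to 11.16 in siNemp1 and 7.82 to 7.94 in Control. FERMT2 over ILK overlapped at 0.0258 to 0.0360 in siNemp1 and 0.0249 to 0.0350 in Control, as did VCL over TLN1 at 1.62 to 3.24 in siNemp1 and 1.89 to 3.54 in Control. PXN over PTK2 overlapped too, at 1.75 to 3.51 in siNemp1 and 1.29 to 2.33 in Control. These ratios also overlapped at 120 kPa alone. At 10 kPa PXN over PTK2 overlapped, but the others did not, with 2 libraries a group. VCL over TLN1 was 2.77 to 3.06 in siNemp1 and 2.25 to 2.41 in Control there. FERMT2 over ILK was 0.0293 to 0.0322 in siNemp1 and 0.0326 to 0.0334 in Control. The ratios of a short to a long transcript carry the length trend described above.

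**Figure D5:**
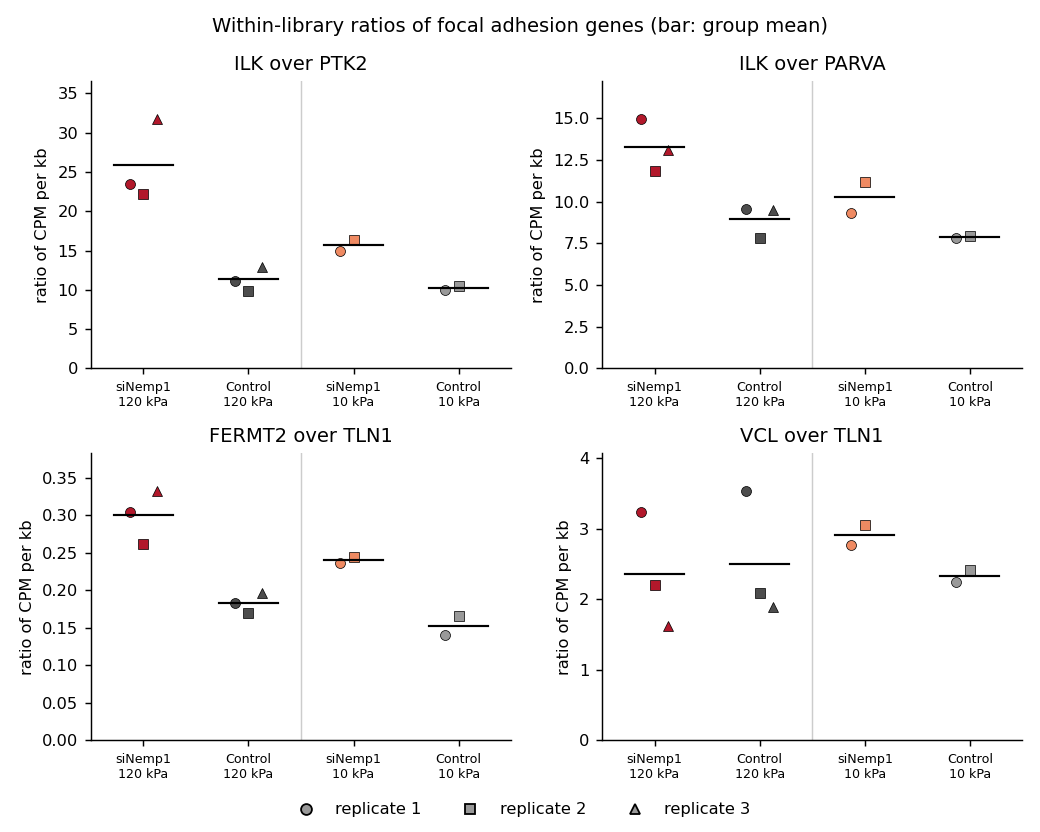
Ratios of CPM per kb between genes within each library, by treatment and stiffness, with the group mean as a bar. ILK over PTK2 (14.96 to 31.8 in siNemp1, 9.90 to 12.96 in Control) and FERMT2 over TLN1 are separate between treatments, and VCL over TLN1 is not.

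Other genes of the adhesion were read from 7 lists of kinases and phosphatases, scaffolds and exchange factors, the ILK complex, talin, tensin and KANK proteins, LIM adaptors, actin linkers and integrins, with 95 genes listed, 93 in the table and 86 tested. SRC and ITGA9 were not analysed here. At 120 kPa 0 of 86 passed without the block, and with it 0 rose and 5 fell, where 6.24% of all genes were called higher and 2.51% lower, beside a median log2 fold change of −0.13 over the lists and 0.01 over all tested genes. The 5 included the actin crosslinker ACTN4, at 65.7 ± 16.5 CPM in siNemp1 and 131 ± 19.8 CPM in Control (mean ± SD, n = 3 each; −1.01 ± 0.14, adjusted p = 0.0061). The others were PTK2B, the paralog of focal adhesion kinase (−0.49 ± 0.10, 0.018), the actin-binding supervillin SVIL (−0.42 ± 0.09, 0.020), the talin-binding KANK2 (−0.42 ± 0.11, 0.033) and the tensin TNS2. DESeq2 called 4 lower and 0 higher of 79 list genes with an adjusted p, beside 0.803% lower and 1.92% higher of its genes. Those were ACTN4, SVIL and the integrin subunits ITGA3 and ITGA7, so PTK2B, KANK2 and TNS2 were not called by it. In the blocked fit none of the 5 tested relatives of the ILK complex passed, with a median of −0.01. All genes of the longest transcript bin had a median of −0.12 at 120 kPa without the block. The part of transcript length in these list values was not tested.

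With all 10 libraries fitted, 0 of 86 passed at 10 kPa, and with the 4 libraries there fitted alone 1 rose and 28 fell of 85 tested, where 8.1% of all genes were called higher and 9.19% lower, with a median of −0.19 beside −0.01 over all genes. In the fit of all 10 libraries the longest transcript bin had a median of −0.12 at 10 kPa, and the part of length here was not tested. The integrin subunit ITGB1 rose (0.16 ± 0.05, adjusted p = 0.042, at 1224 ± 12.2 CPM in siNemp1 and 1084 ± 8.54 CPM in Control). Among those that fell were the laminin receptor subunit ITGA3 (−0.52 ± 0.06, 1.5e-05), the phosphatase PTPN11 (−0.43 ± 0.06, 4.4e-05) and ACTN4 (−0.44 ± 0.07, 0.00012). They came from the actin linkers (8 of 14), kinases and phosphatases (6 of 14), integrins (6 of 16), talin, tensin and KANK genes (3 of 8), LIM adaptors (3 of 15) and scaffolds (2 of 14). Averaged over both stiffnesses the test without the block called ACTN4 alone, where 1.29% of all genes were called. With the block 9 fell and 0 rose, among them the LIM protein FHL3 (−0.49 ± 0.09, 0.013), where 4.17% of all genes were called lower and 6.58% higher.

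The genes whose profiles over the 10 libraries lay nearest to PTK2, out of the 86, were PTK2B (root mean square difference of centred log2 CPM 0.12), KANK2 (0.14) and SVIL (0.16), where the median over all 86 was 0.40. Nearest to ILK were LAYN, a talin-binding membrane lectin (0.17), the PINCH gene LIMS1 (0.21) and the SRC-family kinase YES1 (0.22), with a median of 0.42. All of these points share the same libraries, so the distances are descriptions.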

How the data were processed

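Gene-level estimated counts were deposited by the authors for 10 libraries of hTERT RPE-1 cells, with values left fractional and unscaled. RNA had ribosomal RNA removed by an RNase H method and was primed with random hexamers, per the labels' protocols. FastQC 0.11.9, Trimmomatic 0.33, Salmon 1.80 (as written), edgeR and the build GRCh38 are listed per the submitters' processing notes. Annotation, strandedness and the step from transcripts to genes were not given in the sources used here.

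Estimated counts were rounded, filtered with filterByExpr over 4 groups (13990 genes kept, all 9 members among them), TMM-scaled and fitted with edgeR 4.0.16 (limma 3.58.1, R 4.3.3) by the quasi-likelihood method, with 1 mean per group over all libraries and 6 residual degrees of freedom (4 with the replicate block). Tests were two-sided, with Benjamini-Hochberg adjustment over all tested genes, and called at an adjusted p under 0.05. Alternatives were the block, fits of the groups compared, DESeq2 1.42.0, other scalings and filters, and libraries left out. Length and GC trends (mgcv 1.9.3, 1 GENCODE 29 transcript per gene, found for 98.8% of tested genes) and the block at 10 kPa alone were added after the data were seen. Fits of all libraries were also run on simulated counts drawn with neither a replicate effect nor a length or GC trend. That check cannot show how the block, the trend removal or the fits of the groups compared behave on these data.

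Pairing was read from the numbers in the titles and checked by correlating deviations from group means. All 3 pairs exceeded 0.1 at 120 kPa (0.380, 0.136 and 0.331), so the blocked value stands beside each result whose call it changes. What the numbers mark was not given in the sources used here, and the block also spans the 10 kPa libraries, where r was 0.0189, and replicate 3 exists at 120 kPa alone.

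CPM are TMM-scaled counts per 1000000, and levels per kb use the principal GENCODE 29 transcript. Chi-square per gene between replicates was 2.69 to 101, above sampling noise. Counting error is larger, relative to the value, at low counts. FERMT2 had a mean of 537 counts per library. All members were named in every comparison, up to 4 genes per direction of the smallest p from the pathway lists, and the 3 nearest profiles for PTK2 and ILK. One gene that this rule names is not reported here. Members and lists were chosen with earlier results of these data known.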

Additional observations from a re-analysis of the deposited data

How the results depend on the processing

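At 120 kPa 0 of the 9 genes were called in the main test, 5 with the replicate block and 6 with the block in the 120 kPa libraries alone. It was 5 by DESeq2, 5 with upper-quartile scaling and the block, 1 with no filter and 4 with the block and length and GC trends removed. Of all genes those settings called 0%, 8.75%, 9.39%, 2.73%, 1215 of 13990 genes, 2.73% and 8.58%, in the same order. Leaving out single libraries or pairs gave 0 to 6. Without the block PTK2 passed when Control replicate 3 was left out (adjusted p = 0.041, edgeR), where 582 of 13895 genes did. At 10 kPa the count was 0 in the main test, 5 in the 4 libraries there, 5 with a block in those libraries, and 3 in them with the trends removed. Of all genes those settings called 0%, 17.3%, 2232 of 13345 genes and 12.6%. Averaged over both stiffnesses the count was 0 in the main test, 6 with the block, 5 by DESeq2 and 5 with upper-quartile scaling and the block. It was 3 with no filter, 2 with at least 5 CPM in at least 2 libraries and 3 with the block and trends removed. Of all genes those settings called 1.29%, 10.8%, 4.11%, 1454 of 13990 genes, 2.76%, 3.11% and 8.78%, in the same order. Without single libraries the count was 0 to 2. ILK passed without Control replicate 1 at 120 kPa, where 369 of 13934 genes did. FERMT2 and TNS3 passed without Control replicate 3 at 120 kPa (666 of 13895 genes), and ILK and TNS3 without siNemp1 replicate 3 at 120 kPa (334 of 13884 genes). In both stiffness comparisons and the difference of effects the count of members called was 0 in every setting run. The trends and the block at 10 kPa alone were added after the data were seen. The block changed no other call of a member.

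Of 1124 alternative log2 fold changes of members 996 kept direction and side of the threshold, 76 newly passed and 52 changed sign, all of the last in values that did not pass. With trends removed, without and with the block and in the groups compared, TLN1 at 120 kPa was at 0.041, 0.039 and 0.019, PARVA at 120 kPa at 0.056, 0.055 and 0.036, and VCL at 10 kPa at 0.042, 0.044 and 0.018. TES at 10 kPa was at −0.012 with trends removed in the groups compared. PARVA averaged over stiffnesses was at 0.096 without and 0.097 with the block. PARVA at 10 kPa was at −0.011 in the 4 libraries there, −0.012 with a block in them, −0.0014 and −0.0012 with upper-quartile scaling without and with the block, −0.0056 with no filter, −0.0060 with at least 5 CPM, and −0.069 to 0.064 without single libraries. For 120 kPa against 10 kPa in Control, the values with the block, with upper-quartile scaling and the block, and with trends removed and the block were 0.13, 0.13 and 0.15 for PTK2, −0.042, −0.039 and −0.090 for FERMT2 and 0.018, 0.022 and 0.092 for VCL. With trends removed there PTK2 was at 0.0069 and PARVA at 0.0069, and with the block as well PARVA was at 0.055 and TES at −0.036. In siNemp1 TLN1 was at 0.021 with trends removed and 0.069 with the block as well. TNS3 in the difference of effects was at 0.0040 with trends removed. Without single libraries PTK2 ran from −0.11 to 0.086 and FERMT2 from −0.043 to 0.10 in Control, PXN from −0.20 to 0.057 in siNemp1, and ILK from −0.012 to 0.19, TNS3 from −0.097 to 0.078 and PXN from −0.059 to 0.21 in the difference of effects. The cause was not tested.

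Over all tested genes the count called at 120 kPa was 0 in the main test, 1224 with the block, 1255 in the 120 kPa libraries with it, 642 by DESeq2, 643 with no filter and 119 with at least 5 CPM. At 10 kPa it was 0 in the main test, 4 with the block, 2308 in the 4 libraries and 17 by DESeq2. The average gave 180, 1504 with the block, 967 by DESeq2, 71 with upper-quartile scaling and 0 with DESeq2's size factors. Groups of 2 and 3 libraries limit the precision of every value, and depth adds counting error at low counts.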
